A study of Mus musculus with 40 samples.

Results

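Glutamate receptors and transporters were examined as a set of 31 genes, named by symbol and looked up among the 40213 symbols of the count tables. The set holds the AMPA receptor subunits (Gria1 to Gria4), the kainate receptor subunits (Grik1 to Grik5), the NMDA receptor subunits (Grin1, Grin2a to Grin2d, Grin3a and Grin3b), the delta receptor gene Grid1, the metabotropic receptors Grm2 to Grm8, the vesicular transporters Slc17a6 to Slc17a8 and the plasma membrane transporters Slc1a1, Slc1a2, Slc1a3 and Slc1a6. All 31 were listed in the tables, and 30 had enough counts to be tested. Grm6, the metabotropic receptor of retinal ON bipolar cells, had 3 counts over the 20 midbrain libraries and 1 count over the 20 spinal cord libraries, and was not tested.

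The libraries were made from midbrain and spinal cord of male C57BL/6N mice that were 8 weeks old when obtained, with 5 groups of 4 replicates per tissue. Tissue was taken at the end of the experiment, when the mice were older. Con mice received saline. All other mice received 20 mg/kg of the dopaminergic neurotoxin MPTP intraperitoneally, 4 times at 2 h intervals. MPTP-Veh mice were then given saline at the acupoint GB34, and MPTP-SU mice were given SUEHP, a pharmacopuncture extract, bilaterally at GB34 in 4 injections. MPTP-SU+S mice received SUEHP together with 3 mg/kg of the CB1 antagonist SR141716A, which the labels spell SR141714A (figure legends of the study place SUEHP at GB35 in this group, so that a difference in acupoint cannot be told apart from the antagonist if they are right), and MPTP-SU+T mice received SUEHP together with 5 mg/kg of the PPARγ antagonist T0070907. The MPTP-Veh group against Con thus asks what MPTP changed, MPTP-SU against MPTP-Veh what SUEHP changed in MPTP mice, and each antagonist group against MPTP-SU what the antagonist and its injection changed on top of SUEHP. The antagonists were injected intraperitoneally before SUEHP, in a solvent of ethanol, Alkamuls EL-620 and saline. The methods state no injection of this solvent for MPTP-SU mice. If they received none, antagonist and solvent cannot be told apart. Total counts ranged from 11958200 to 16639823 in midbrain and from 14642808 to 16615378 in spinal cord. Each library is a whole piece of tissue, so that fewer cells of a type and less RNA per cell cannot be told apart.

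Glutamate is the main excitatory transmitter of brain and spinal cord. It is loaded into synaptic vesicles by the SLC17 transporters, acts on ligand-gated AMPA, kainate and NMDA receptors and on slower G protein-coupled metabotropic receptors, and is cleared from the extracellular space mainly by astrocytic SLC1 transporters. In the midbrain, glutamatergic input drives dopaminergic neurons, and in the spinal dorsal horn glutamate carries the signal from primary afferents, including that of noxious stimuli.

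The tissue labels were checked first. A list of 9 Hox genes that mark the spinal cord summed to between 520 and 629 CPM (counts scaled to library sizes that were corrected by the trimmed mean of M values) in the spinal cord libraries and to at most 1.59 CPM in the midbrain libraries. Dopaminergic markers summed to between 405 and 781 CPM in the midbrain and between 295 and 333 CPM in the spinal cord, so this list separated the tissues less than the Hox list. The midbrain pieces differed in markers of neighboring regions: the summed thalamus list ranged from 454 to 1870 CPM and the hypothalamus list from 11.4 to 672 CPM. Midbrain MPTP-Veh replicate 4 stood apart from all other libraries, with 1.35% of its counts from mitochondrially encoded genes against 9.92% to 17.5% in the other midbrain libraries. Fold changes and calls that rest on MPTP-Veh in midbrain are given without it as well where they are described in full. Tests between the other midbrain groups, and those between the Con tissues, also took their spread from a fit that included this library.

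The genes with the widest contrast between the tissues in either direction, together with Slc17a6, the vesicular transporter found in both tissues, are introduced by their promoters. RefSeq promoter sequences of assembly GRCm38.p6, from 250 bases before to 50 bases after the transcription start, were at hand for 22 of the 31 genes. The files themselves are based on GRCm39 per the labels, and no position was carried over between assemblies. The shown windows are Slc17a7 at chr7:45163671-45163970 on the plus strand, Grm2 at chr9:106656060-106656359 on the minus strand, Slc17a6 at chr7:51621580-51621879 on the plus strand (1 of 2 starts listed) and Grin3b at chr10:79970474-79970773 on the plus strand. All are written 5′ to 3′ along the gene, and capitals mark the GC box GGGCGG, on either strand, and the TATA box TATAAA, on either strand.
Slc17a7: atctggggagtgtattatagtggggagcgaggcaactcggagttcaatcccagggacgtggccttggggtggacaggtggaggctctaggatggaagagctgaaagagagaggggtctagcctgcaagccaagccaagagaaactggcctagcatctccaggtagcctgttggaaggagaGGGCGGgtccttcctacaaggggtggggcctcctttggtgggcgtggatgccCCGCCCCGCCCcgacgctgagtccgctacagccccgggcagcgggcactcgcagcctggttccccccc
Grm2: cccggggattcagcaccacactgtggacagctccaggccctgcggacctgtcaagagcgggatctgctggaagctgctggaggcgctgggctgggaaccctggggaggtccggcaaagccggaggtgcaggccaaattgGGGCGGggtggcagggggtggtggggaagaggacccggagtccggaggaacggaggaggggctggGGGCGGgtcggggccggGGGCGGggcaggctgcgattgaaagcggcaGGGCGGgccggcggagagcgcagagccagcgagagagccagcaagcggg
Slc17a6: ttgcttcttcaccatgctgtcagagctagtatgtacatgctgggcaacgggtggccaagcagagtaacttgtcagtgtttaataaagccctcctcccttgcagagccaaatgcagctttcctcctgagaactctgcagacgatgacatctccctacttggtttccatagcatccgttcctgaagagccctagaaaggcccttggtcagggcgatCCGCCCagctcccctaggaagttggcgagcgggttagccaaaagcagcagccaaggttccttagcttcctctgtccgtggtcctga
Grin3b: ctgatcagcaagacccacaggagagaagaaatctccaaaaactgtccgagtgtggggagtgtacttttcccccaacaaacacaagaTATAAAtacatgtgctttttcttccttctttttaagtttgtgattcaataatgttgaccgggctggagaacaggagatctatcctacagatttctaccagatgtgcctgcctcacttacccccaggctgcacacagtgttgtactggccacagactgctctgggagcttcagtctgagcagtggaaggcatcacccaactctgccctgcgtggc
Slc17a7 held 3 GC boxes, 2 of them overlapping by 1 base, and Grm2 held 4. Slc17a6 held 1, and Grin3b held none but carried a TATA box. GC content was 63.7% for Slc17a7, 72% for Grm2, 53.7% for Slc17a6 and 48.3% for Grin3b, against a median of 52.7% over all 32851 promoters in the table. A GC box was found in 15 of the 27 promoters of the set and in 35.7% of all promoters, and a TATA box in 2 of 27 and in 13.6% of all. These letter matches are descriptions of the windows and not measured binding sites.

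The widest difference in the set lay between the 2 tissues of the Con mice. Of 30 genes tested, 9 were higher and 2 were lower in Con midbrain than in Con spinal cord, by edgeR's quasi-likelihood test over all 40 libraries with a Benjamini-Hochberg adjusted p below 0.05 and a fold change above 1.5. This is 36.7% of the set, where 16.4% of all 17426 genes tested were called, 7.39% higher and 9.02% lower. The median log2 fold change of the set was 0.30, beside 0.02 for all genes. In 17 of the 30 genes the 4 midbrain values did not overlap the 4 spinal cord values, 13 of them higher and 4 lower, where 37.3% of all genes did not overlap, 18.4% higher and 18.9% lower.

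**Figure D1:**
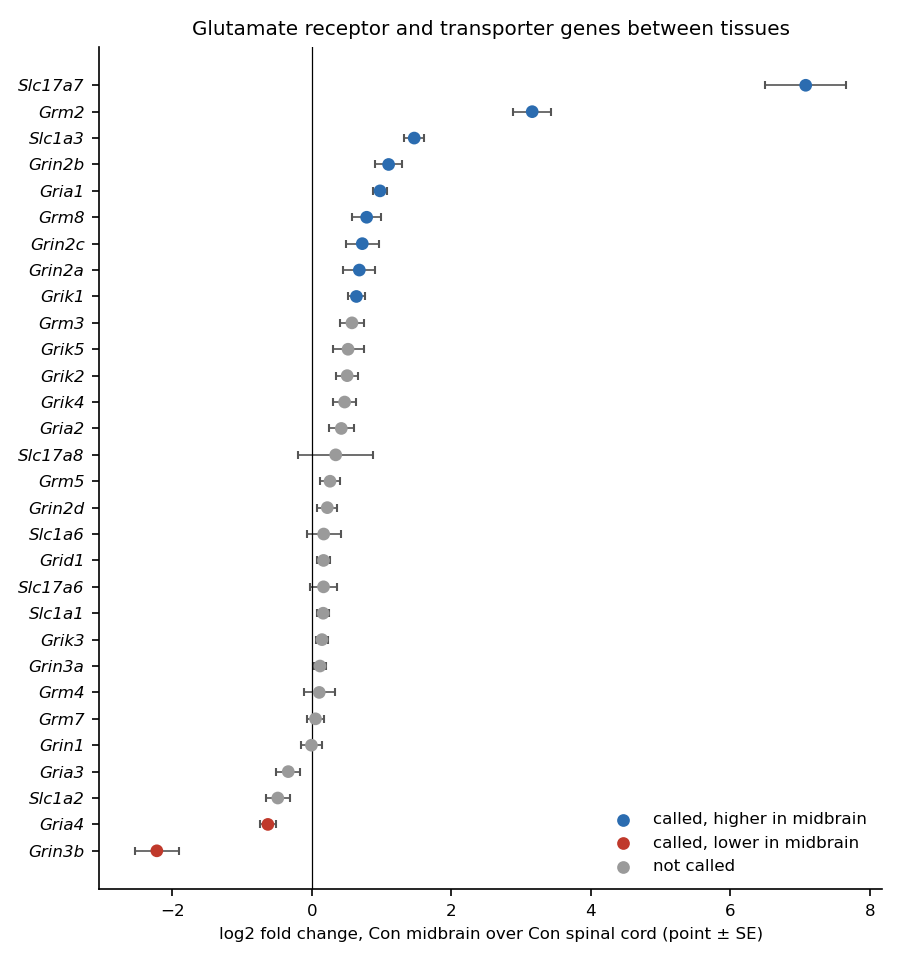
Log2 fold change of each of the 30 tested genes between Con midbrain and Con spinal cord (4 libraries each), with its standard error as a whisker; blue and red points passed the adjusted p and fold change thresholds and gray points did not. Slc17a7 at 7.08 and Grm2 at 3.16 lie far to the right, Grin3b at -2.22 far to the left, and most other genes lie between -1 and 1.

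The vesicular transporters, which define the glutamatergic phenotype of a neuron, carried the largest contrast. Slc17a7 (VGLUT1), typical of cortical and cerebellar glutamatergic neurons, had 176, 378, 76.2 and 181 CPM in Con midbrain replicates 1 to 4 and 0, 1.81, 2.65 and 1.44 CPM in Con spinal cord. The lowest midbrain library was thus far above the highest spinal cord library, while the midbrain libraries differed widely from each other. The log2 fold change was 7.08 (SE 0.58 and adjusted p = 7.49e-12 in edgeR). Slc17a6 (VGLUT2), the transporter of most subcortical and spinal glutamatergic neurons, had 274, 190, 298 and 237 CPM in Con midbrain and 210, 238, 212 and 228 CPM in Con spinal cord. These values overlapped, with a log2 fold change of 0.17 (95% interval -0.23 to 0.56, adjusted p = 0.566 in edgeR). Slc17a8 (VGLUT3), found in scattered neurons that mostly use another transmitter, was low in both, with 2.11, 1.92, 1.71 and 2.27 CPM in Con midbrain and 1.57, 1.96, 1.38 and 1.44 CPM in Con spinal cord.

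As shares of the vesicular transporter family, computed from CPM per kb of the longest annotated transcript, Slc17a6 made up 51.0% ± 19.3 (SD, n = 4) of Con midbrain and 98.5% ± 0.65 of Con spinal cord. Slc17a7 made up 48.7% ± 19.3 and 0.869% ± 0.675, and Slc17a8 0.367% and 0.652%. The make-up of the family in spinal cord was thus nearly that of Slc17a6 alone.

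The plasma membrane transporters differed in opposite directions. Slc1a3 (GLAST, EAAT1), an astrocyte and Bergmann glia transporter, had 264, 318, 313 and 262 CPM in Con midbrain and 97.9, 111, 104 and 105 CPM in Con spinal cord. All midbrain values were above all spinal cord values, with a log2 fold change of 1.47 (SE 0.14). Slc1a2 (GLT-1, EAAT2), the main astrocytic glutamate transporter of the forebrain, had 1494, 1509, 1364 and 1342 CPM in Con midbrain and 1841, 2334, 1932 and 1899 CPM in Con spinal cord. It passed the adjusted p alone, with a log2 fold change of -0.49 (SE 0.17 and adjusted p = 0.0292 in edgeR) but less than a 1.5-fold change. Per kb of transcript, Slc1a2 made up 56.9% ± 2.15 of the family in Con midbrain and 78.0% ± 1.22 in Con spinal cord (SD, n = 4), and Slc1a3 30.1% ± 2.21 and 10.7% ± 0.54. Over all 20 libraries of each tissue, treated groups included, a list of 10 other astrocyte markers summed to a median of 2329 CPM in midbrain and 4581 CPM in spinal cord. Slc1a3 thus went against this sum in direction. A sum follows its most abundant genes, and the directions of the single markers are not given here. Slc1a1 (EAAC1, EAAT3), the neuronal transporter, had a log2 fold change of 0.16, and Slc1a6 (EAAT4), the Purkinje cell transporter, of 0.17, and neither passed the test.

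**Figure D2:**
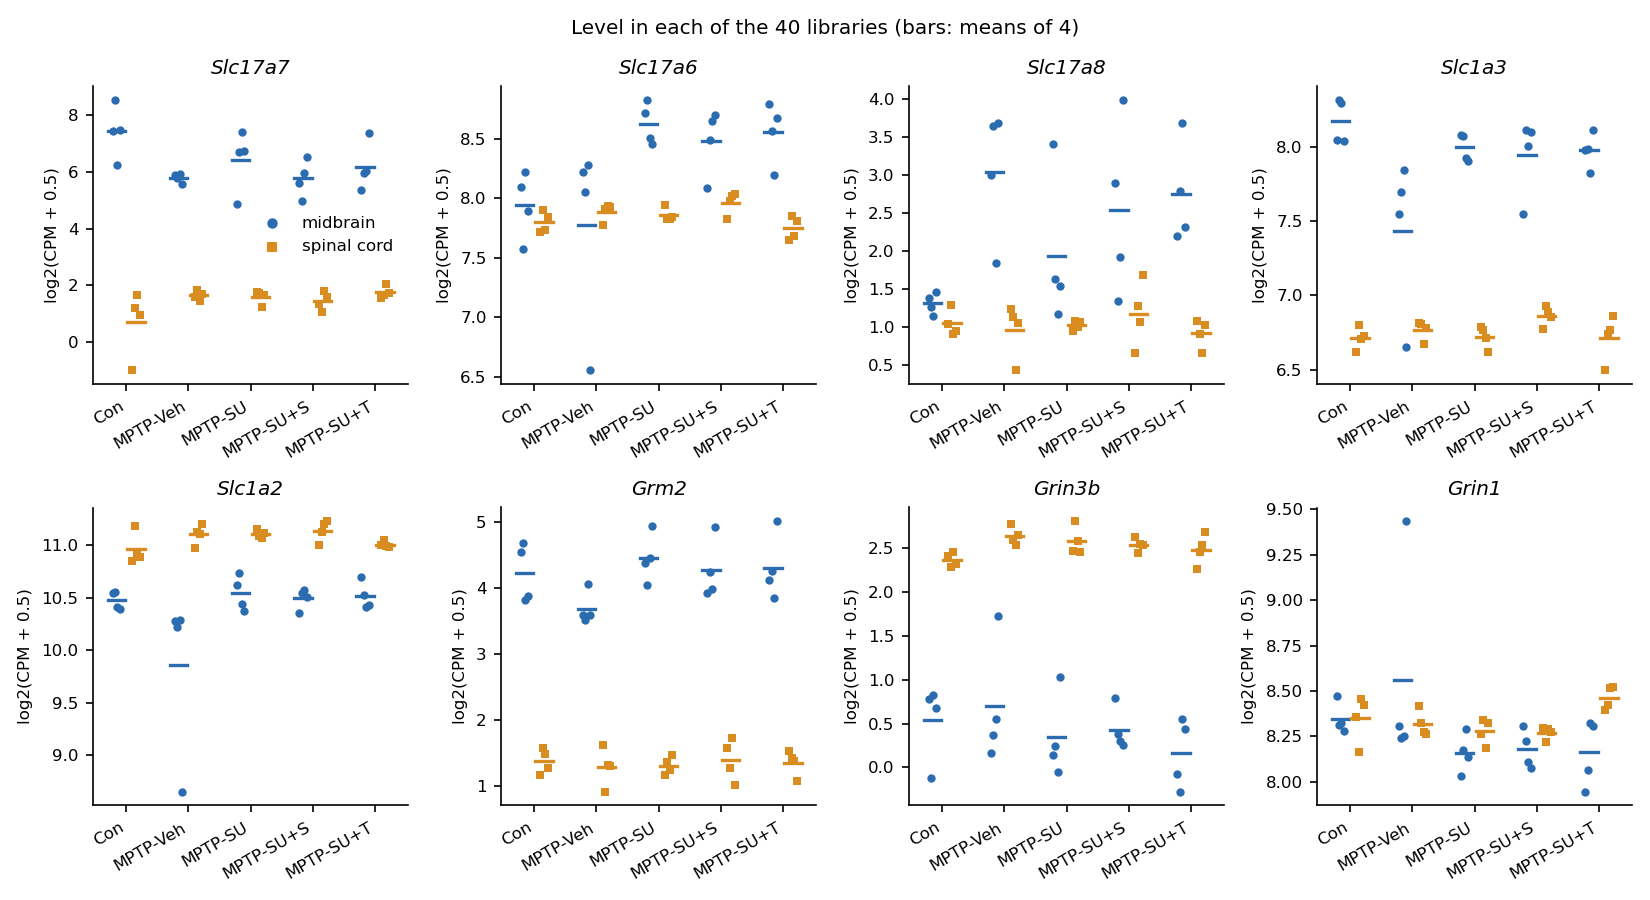
Level of 8 genes in each of the 40 libraries as log2(CPM + 0.5), with midbrain as blue circles, spinal cord as orange squares and the mean of each group of 4 as a bar. The group means of Slc17a7, Slc1a3 and Grm2 are higher in midbrain in every group, those of Grin3b are lower, and Slc17a6 and Grin1 lie close together in Con; the single low midbrain points of Slc17a6, Slc1a2 and Slc1a3 and the single high point of Grin1 are MPTP-Veh replicate 4.

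Among AMPA receptor subunits, which carry fast excitatory transmission, Gria1 was higher and Gria4 was lower in midbrain. Gria1 (GluA1) had 251, 405, 311 and 313 CPM in Con midbrain and 167, 156, 158 and 169 CPM in Con spinal cord, a log2 fold change of 0.98 (SE 0.10). Gria4 (GluA4) had 130, 106, 131 and 121 CPM in Con midbrain and 182, 212, 179 and 183 CPM in Con spinal cord, a log2 fold change of -0.63 (SE 0.12). Neither gene's values overlapped between the tissues. Gria2 (GluA2), the subunit that makes AMPA receptors impermeable to calcium, had 274, 323, 271 and 273 CPM in Con midbrain and 205, 255, 196 and 195 CPM in Con spinal cord, and Gria3 had a log2 fold change of -0.34, both short of the adjusted p. All Gria2 values in midbrain were nonetheless above all those in spinal cord. Gria1 accounted for 45.2% ± 4.92 of the AMPA family in midbrain and 27.1% ± 2.38 in spinal cord (SD, n = 4), Gria4 for 17.9% ± 3.05 and 31.9% ± 0.54, and Gria2 for 21.7% and 18.8%. Without division by transcript length, the Gria2 shares were 34.5% and 30.8%. This changes the order of the subunits in spinal cord but not in midbrain, and not the direction of the tissue difference.

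**Figure D3:**
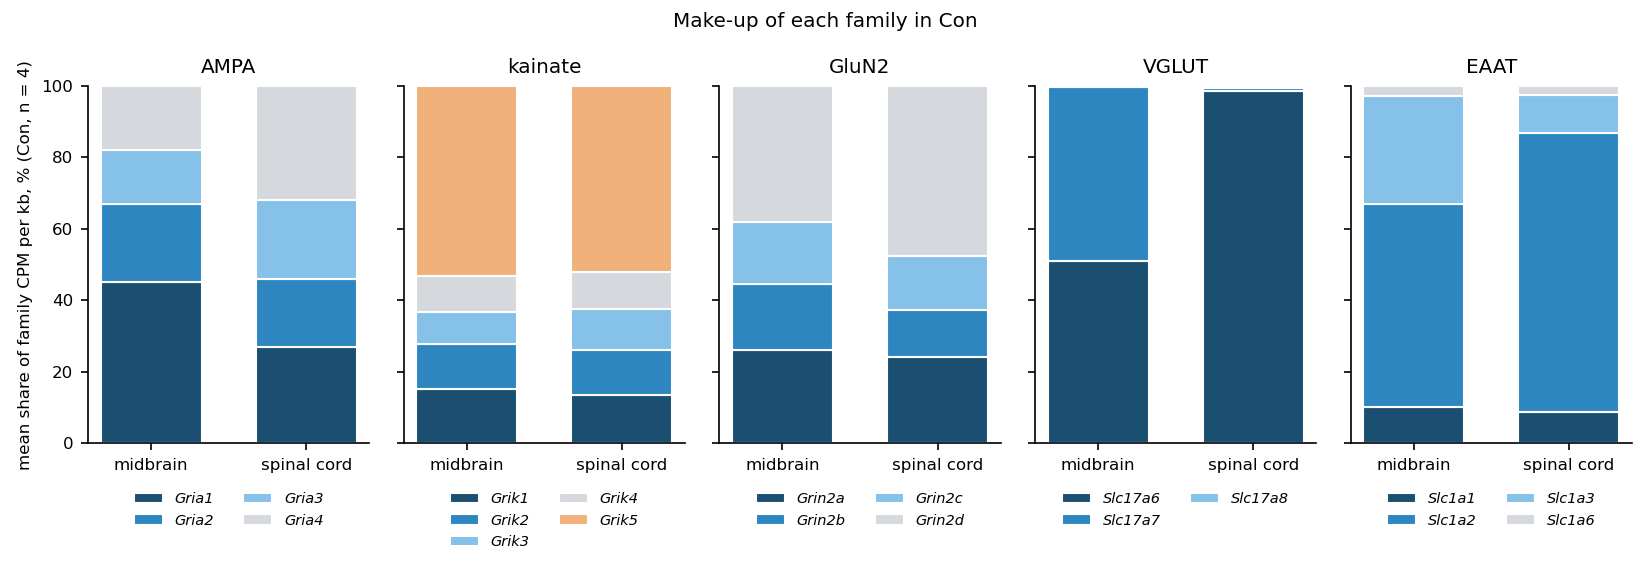
Mean share of each gene in its family in Con midbrain and Con spinal cord (4 libraries each), in percent of the family's CPM per kb of transcript. The vesicular transporters (VGLUT) change most, from 51.0% to 98.5% Slc17a6, followed by the plasma membrane transporters (EAAT) and AMPA subunits, while Grik5 keeps 53.1% and 52.1% of the kainate family.

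The NMDA receptor gene set was split. Grin1, the obligate subunit of every NMDA receptor, had 354, 318, 320 and 310 CPM in Con midbrain and 328, 287, 350 and 343 CPM in Con spinal cord, with a log2 fold change of -0.01 (95% interval -0.31 to 0.30). The GluN2 subunits set the kinetics and pharmacology of the receptor. Grin2b, the subunit linked to slow decay, had 77.2, 148, 93.7 and 101 CPM in Con midbrain and 55.0, 55.2, 41.2 and 44.9 CPM in Con spinal cord, a log2 fold change of 1.10 (SE 0.19). Grin2a and Grin2c were also higher in midbrain, with log2 fold changes of 0.68 (SE 0.23) and 0.72 (SE 0.23). Grin2d, with a log2 fold change of 0.22, did not pass the test. Grin3b, a glycine-binding subunit described mainly in motor neurons, was low but higher in spinal cord, with 1.21, 0.419, 1.27 and 1.10 CPM in Con midbrain and 4.83, 4.37, 5.01 and 4.49 CPM in Con spinal cord, a log2 fold change of -2.22 (SE 0.32). The list of 6 motor neuron markers summed to between 185 and 242 CPM in spinal cord and between 6.93 and 41.2 CPM in midbrain. Its relation Grin3a had a log2 fold change of 0.12.

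Kainate, delta and metabotropic receptors showed smaller contrasts, apart from Grm2. Grm2 (mGluR2), a presynaptic inhibitory autoreceptor, had 22.9, 25.0, 13.6 and 14.2 CPM in Con midbrain and 1.76, 2.49, 2.31 and 1.92 CPM in Con spinal cord, a log2 fold change of 3.16 (SE 0.27). Grm8, a group III presynaptic receptor, and the kainate subunit Grik1 were higher in midbrain, with log2 fold changes of 0.79 (SE 0.21) and 0.64 (SE 0.12). Grm3 (0.57), Grik2 (0.51) and Grik4 (0.47) passed the adjusted p but changed by less than 1.5-fold. Grik3, Grik5, Grid1, Grm4, Grm5 and Grm7 did not pass the adjusted p, with log2 fold changes from 0.05 (Grm7) to 0.52 (Grik5). The Grik5 values did not overlap, with 87.0 to 107 CPM in Con midbrain and 59.6 to 70.1 CPM in Con spinal cord. Counted by the adjusted p alone, 15 genes differed, 12 higher and 3 lower in midbrain, where 29.8% of all genes did, 13.9% higher and 15.9% lower.

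Genes that act with these receptors were also higher in midbrain or not called, where 16.4% of all genes were called, 7.39% higher and 9.02% lower. Of 12 AMPA receptor auxiliary subunits, 8 were higher in Con midbrain and none was lower. The smallest p-values were those of Shisa7 (log2 fold change 1.00), Cnih2 (1.88) and Gsg1l (1.03), which regulate channel gating and trafficking, and the largest fold was that of Cnih3 (2.52). Of 18 postsynaptic scaffold genes 8 were higher and none lower, with the smallest p-values for Dlg3 (0.60), Dlgap1 (0.77) and Dlg4 (0.73), the gene of PSD-95. Of the 2 kainate auxiliary subunits, Neto1 was higher (0.76). Of 11 genes of the glutamate-glutamine cycle, only Slc7a11 (1.09), the cystine-glutamate exchanger, passed the test. The medians were 0.95, 0.53 and -0.11 for the AMPA auxiliary subunits, the scaffolds and the cycle.

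Between 9 and 13 genes were called in the tissue contrast under the alternatives that kept the fold threshold. Shares of all genes under these alternatives are not given here. Calls were lost for Gria4, which fell below 1.5-fold without midbrain Con replicate 2 (-0.58) or spinal cord Con replicate 2 (-0.58), with library size alone (-0.57) and with a trend against GC content and length removed (-0.50, also with the replicate block), for Grin2a, which had 0.46 without midbrain Con replicate 2, 0.64 without spinal cord Con replicate 3 and 0.64 without spinal cord Con replicate 4, all short of the adjusted p, and for Grin2c, with 0.66 without spinal cord Con replicate 2. Gria4 was called in 14, Grin2a in 16 and Grin2c in 18 of 19 alternatives. Removal of the GC and length trend added Gria2 (0.65), Grik2 (0.75) and Grik4 (0.61), and Grm3 was added with library size alone (0.63) and without spinal cord Con replicate 2 (0.62) or 4 (0.59), the former with Grik2 (0.62).

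In midbrain, no gene of the set was called between MPTP-Veh and Con in edgeR, where 0.018% of all genes, 3 in number, were called. At an unadjusted p below 0.05, 11 of the 30 genes passed, against 23.7% of all genes. DESeq2 called 4 genes of the set and 446 of all genes, where edgeR called 3 of all genes. The values of 8 genes did not overlap, 2 higher and 6 lower in MPTP-Veh, where 12.4% of all genes did not, 6.3% higher and 6.08% lower. The median log2 fold change of the set was -0.17, beside 0.00 for all genes.

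The smallest p-values belonged to Slc1a3 and Slc17a7. Slc1a3 had 187, 206, 230 and 100 CPM in MPTP-Veh, all below the Con range of 262 to 318 CPM, with a log2 fold change of -0.67 (SE 0.18 and adjusted p = 0.130 in edgeR). Without MPTP-Veh replicate 4 it was -0.48 (adjusted p = 0.125 in edgeR). Slc17a7 had 59.2, 55.2, 59.9 and 47.2 CPM in MPTP-Veh, below each of the widely spread Con values, with a log2 fold change of -1.87 (SE 0.51 and adjusted p = 0.130 in edgeR) that was -1.80 without replicate 4 (adjusted p = 0.208). The summed cortex and hippocampus markers were at 190 to 370 CPM in Con and at 130 to 198 CPM in MPTP-Veh midbrain. All 11 tested markers of that list had negative log2 fold changes, with a median of -1.48 and none called, and their part in the Slc17a7 result was not tested. In spinal cord, where Slc17a7 was near 0, the same list summed to between 312 and 362 CPM, so it holds genes that are not restricted to the forebrain.

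Slc17a8 went the other way. It had 7.55, 12.0, 3.08 and 12.4 CPM in MPTP-Veh, against 1.71 to 2.27 CPM in Con, with a log2 fold change of 2.13 (SE 0.64 and adjusted p = 0.130 in edgeR) that was 1.91 without replicate 4 (adjusted p = 0.249). Every MPTP-Veh library was above every Con library. Serotonergic neurons of the raphe, which lies at the midline of the midbrain and hindbrain, are known to contain Slc17a8. Their markers Tph2, Slc6a4 and Fev summed to 71.4, 77.6, 22.4 and 143 CPM in MPTP-Veh replicates 1 to 4 and to 31.5, 13.6, 0.825 and 15.1 CPM in Con. These sums overlapped, with Con replicate 1 above MPTP-Veh replicate 3, where the Slc17a8 values did not. Over all 20 midbrain libraries, Slc17a8 was correlated with the mean log2 level of these 3 markers with Pearson's r = 0.87 and Spearman's rho = 0.90 (permutation p = 1e-05 for both, the smallest that 100000 permutations can give, adjusted p = 0.0015 over 150 relations). Without the 2 libraries farthest from the median r was 0.88, without MPTP-Veh replicate 4 it was 0.85, and for deviations from the group means it was 0.80. The marker list was added after the Slc17a8 values had been seen, and the part of these markers in the Slc17a8 difference was not tested.

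DESeq2 called Slc1a3 (adjusted p = 0.0259), Slc17a7 (0.0173) and Slc17a8 (0.0259). Without MPTP-Veh replicate 3, edgeR called 4 genes of the set, including Slc1a3 (-0.81) and Slc17a8 (2.41), and 1093 of all genes. Over all alternatives the adjusted p of these 3 genes ranged from 0.0173 to 0.492. Among other genes, Slc17a6 had 298, 265, 310 and 93.6 CPM in MPTP-Veh, Grin1 had 316, 302, 304 and 692 CPM, and Gria2 had 268, 217, 292 and 111 CPM, each with replicate 4 apart. Without that library their log2 fold changes were 0.22, -0.08 and -0.14. Slc1a2, with 1242, 1196, 1253 and 401 CPM, was below every Con value, with a log2 fold change of -0.48 that became -0.21 without replicate 4. None of the auxiliary, scaffold or cycle genes was called in this comparison. Without replicate 4, the AMPA auxiliary subunit Shisa7 was lower in MPTP-Veh (log2 fold change -0.65, adjusted p = 0.0209 in edgeR), and it was the 1 gene called among all 16831 tested.

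**Figure D4:**
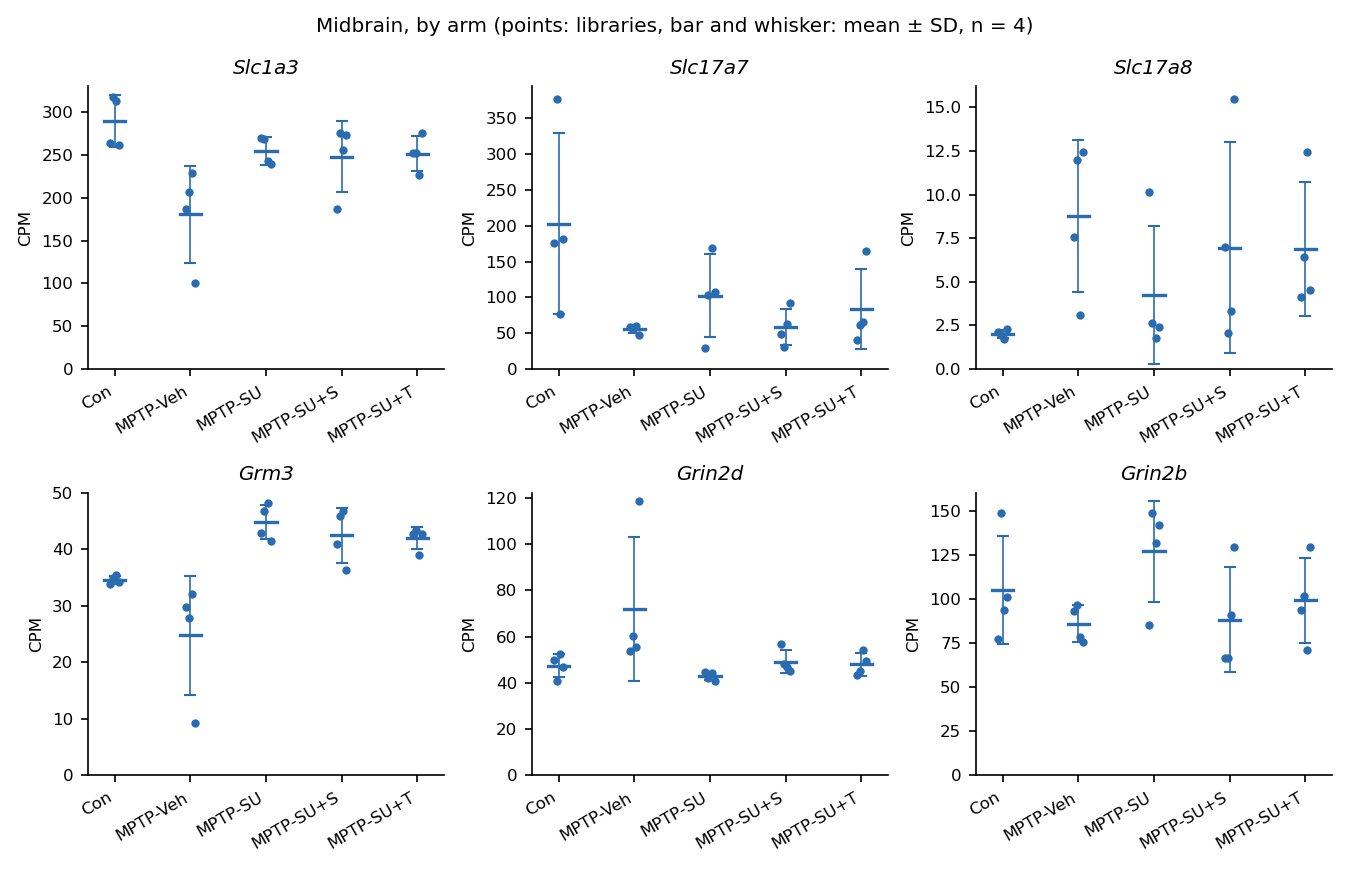
CPM of 6 genes in the 20 midbrain libraries, by group, with each library as a point and the mean ± SD of 4 as bar and whisker. Slc1a3 and Slc17a7 are low and Slc17a8 is high in MPTP-Veh against Con, while the lowest Grm3 value (9.25 CPM) and the highest Grin2d value (118 CPM) are both MPTP-Veh replicate 4.

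In midbrain, 2 genes of the set were called between MPTP-SU and MPTP-Veh. Grm3 was higher and Grin2d was lower in MPTP-SU, which is 6.67% of the 30 genes, where 13.5% of all genes were called, 4.35% higher and 9.1% lower. By the adjusted p alone there were 4 genes, with Slc1a1 (log2 fold change 0.40) and Grik2 (0.57) added, where 20.1% of all genes passed, 7.38% higher and 12.8% lower. The values of 10 genes did not overlap, 8 higher and 2 lower, where 21.8% of all genes did not, 10.7% higher and 11.1% lower. The set's median log2 fold change was 0.26, beside 0.00 for all genes, and 19 of the 30 genes passed at an unadjusted p below 0.05 against 39.8% of all genes.

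Grm3 (mGluR3), a group II metabotropic receptor of astrocytes and neurons, had 29.8, 27.8, 32.1 and 9.25 CPM in MPTP-Veh and 42.9, 46.7, 48.1 and 41.5 CPM in MPTP-SU. The Con values of 33.8 to 35.4 CPM lay between both groups, so that MPTP-SU was above Con as well as above MPTP-Veh. The log2 fold change against MPTP-Veh was 0.85 (SE 0.23 and adjusted p = 0.0201 in edgeR). Without MPTP-Veh replicate 4 it was 0.58 (adjusted p = 0.000397), which passed the adjusted p but no longer the fold threshold.

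Grin2d (GluN2D), an NMDA receptor subunit of subcortical neurons, had 53.6, 60.5, 55.4 and 118 CPM in MPTP-Veh and 44.7, 42.0, 44.1 and 40.9 CPM in MPTP-SU, with 40.7 to 52.4 CPM in Con. The log2 fold change was -0.75 (SE 0.19 and adjusted p = 0.0169 in edgeR), and -0.40 without MPTP-Veh replicate 4 (adjusted p = 0.00971). All MPTP-SU values lay below all MPTP-Veh values with or without that library.

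The number of genes called changed with single libraries. Without MPTP-Veh replicate 4 no gene of the set passed both thresholds (3.4% of all genes did), and 6 passed the adjusted p alone, namely Grm3, Grin2d, Slc1a1 (0.36), Slc1a2 (0.28), Grin2a (0.53) and Gria3 (0.32). Without MPTP-SU replicate 2 none was called, with Grm3 at 0.83 (adjusted p = 0.0560 in edgeR) and Grin2d at -0.74 (adjusted p = 0.0516). Leaving out MPTP-Veh replicate 1, 2 or 3 gave 9, 6 and 11 called genes, and calls over all genes also went up from 13.5%, to 17.4%, 19.6% and 21.0%. With the 8 libraries alone none was called, with 0.84 for Grm3 and -0.77 for Grin2d.

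The deviation of MPTP-Veh replicate 4 moved with base composition in the set. Its level relative to replicates 1 to 3 was high for Grik5 (286 against 81.4 to 88.8 CPM), Grin1 (692 against 302 to 316 CPM), Grm4 (119 against 45.4 to 50.3 CPM) and Slc1a6 (51.4 against 13.8 to 18.2 CPM), and low for Slc1a2, Gria3 (27.4 against 75.7 to 87.7 CPM), Grin2a (14.9 against 60.4 to 70.9 CPM) and Grm3. Across the 30 genes, which are not independent replicates, the log2 ratio had r = 0.81 and rho = 0.80 with the GC content of the longest annotated transcript, and r = 0.62 across 14056 genes. The ratio of MPTP-SU to MPTP-Veh replicates 1 to 3 had r = -0.11 with GC content across the set. With a trend against GC content and length removed, Gria2 changed from a log2 fold change of 0.41 to -0.24 and Grik2 from 0.57 to -0.01. Grin2d lost its call, from -0.75 to -0.32, which is below 1.5-fold, as it did with limma-voom (-0.41). Of 19 alternatives, 13 called Grin2d and 16 called Grm3.

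**Figure D5:**
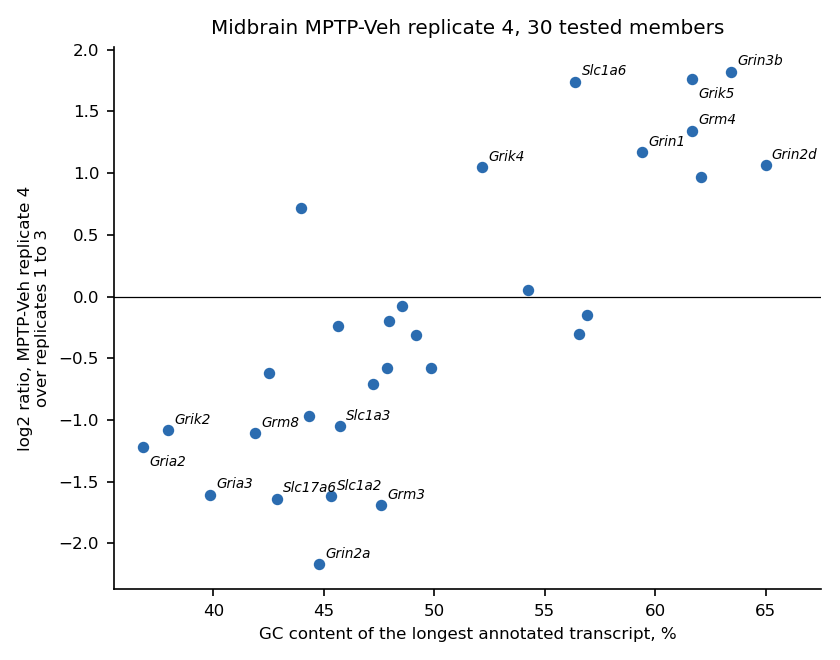
Log2 ratio of midbrain MPTP-Veh replicate 4 over the other 3 MPTP-Veh replicates for each of the 30 tested genes, against the GC content (percent) of the longest annotated transcript, with genes beyond a ratio of 1 or -1 named. GC-rich genes such as Grik5, Grin2d and Grin1 lie above 0 and GC-poor genes such as Gria2, Gria3 and Grik2 lie below it (r = 0.81).

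The vesicular and plasma membrane transporters did not pass both thresholds for SUEHP. Slc17a6 had 420, 454, 362 and 350 CPM in MPTP-SU, above every MPTP-Veh and Con value, with a log2 fold change of 0.71 (SE 0.26 and adjusted p = 0.0580 in edgeR) against MPTP-Veh, or 0.44 without MPTP-Veh replicate 4 (adjusted p = 0.0731). Slc17a7 was scattered at 28.6, 104, 169 and 107 CPM, and Slc17a8 was at 10.2, 2.61, 1.75 and 2.43 CPM, with replicate 1 apart. Slc1a3, with 269, 268, 243 and 239 CPM, and Slc1a2, with 1571, 1708, 1390 and 1326 CPM, lay above every MPTP-Veh value, with log2 fold changes of 0.49 and 0.55 (adjusted p = 0.0592 and 0.0853 in edgeR), or 0.29 and 0.28 without MPTP-Veh replicate 4 (adjusted p = 0.103 and 0.0417). Without that library, Slc17a7 had 0.81 and Slc17a8 -0.83, with adjusted p of 0.345 and 0.413. Gria2 had 358, 363, 238 and 219 CPM and Grin1 262, 289, 313 and 281 CPM in MPTP-SU, with log2 fold changes against MPTP-Veh of 0.41 and -0.50, or 0.19 and -0.11 without replicate 4. MPTP-SU replicates 2 to 4 had 1384 to 1555 CPM of summed thalamus markers, against 682 CPM in replicate 1 and 614 to 1008 CPM in MPTP-Veh. Of that list, Calb2 alone had a lower group mean in MPTP-SU, 127 CPM against 337 CPM in MPTP-Veh, where it reached 766 CPM. All other thalamus markers had higher group means in MPTP-SU, such as Prkcd with 345 against 58.5 CPM and Rora with 332 against 131 CPM.

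Among the partner genes, 4 of 12 AMPA auxiliary subunits were called in MPTP-SU against MPTP-Veh, Cacng5 (0.94) and Cnih3 (0.88) higher and Cacng7 (-0.88) and Cacng4 (-1.30) lower. Of 18 scaffolds Homer2 (0.94) was higher and Shank1 (-1.08) lower. No kainate auxiliary or cycle gene was called. Over all genes 13.5% were called, 4.35% higher and 9.1% lower. MPTP-Veh replicate 4 had the highest sum of the AMPA auxiliary list among the midbrain libraries, 1063 CPM against a median of 617 CPM. Without it, only Cnih3 (0.99) of these 6 genes kept its call, where 3.4% of all genes were called. Cacng7 (-0.49), Shank1 (-0.45) and Cacng4 (-0.38) passed the adjusted p (0.00274, 0.0117 and 0.0336 in edgeR) but no longer the fold threshold. Cacng5 (0.78) and Homer2 (0.76) passed the fold threshold but no longer the adjusted p (0.0839 and 0.0727 in edgeR).

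Several genes of the set followed the regional marker lists over the 20 midbrain libraries, in correlations chosen after the levels had been seen. Of 150 relations (30 genes with 5 lists), 4 had an adjusted permutation p below 0.05 for both r and rho. Besides Slc17a8, these were Grin2b with the thalamus list (r = 0.77, rho = 0.79, adjusted p = 0.0060 and 0.0050), Slc1a1 with the thalamus list (r = 0.78, rho = 0.77, adjusted p = 0.00375 and 0.00525) and Gria1 with the cortex and hippocampus list (r = 0.75, rho = 0.78, adjusted p = 0.0150 and 0.0050). Their raw permutation p was 0.00012, 5e-05 and 0.0004 for r and 0.0001, 0.00014 and 0.0001 for rho. Without the 2 libraries farthest from the median r was 0.76, 0.69 and 0.84. Within groups, as deviations from the group means, r stayed at 0.85 for Grin2b and 0.74 for Slc1a1 but was 0.34 for Gria1, which does not hold within groups. Slc17a7 with the cortex and hippocampus list had r = 0.56 and rho = 0.35, and r was 0.19 without the 2 farthest libraries, so that this relation rests on them.

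No gene of the set was called for either antagonist in midbrain. Neither the 30 genes nor any other of the 16629 genes tested passed in edgeR in either comparison (0% of all genes). An unadjusted p below 0.05 was reached by 1.65% and 1.7% of all genes, fewer than that threshold passes where nothing differs. The spread in these tests came from the fit over all midbrain libraries, MPTP-Veh replicate 4 included. Its common dispersion was 0.0512, against 0.0071 in the spinal cord fit. The lack of calls therefore does not show that the antagonists changed nothing. Values without that library are not given for these comparisons. Under DESeq2 no gene of the set was called either. At an unadjusted p below 0.05 there were 2 genes of the set for SR141716A and 0 for T0070907.

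For SR141716A these were Grin2b and Slc1a1. Grin2b had 66.3, 66.5, 90.6 and 129 CPM in MPTP-SU+S, against 85.4, 149, 131 and 142 CPM in MPTP-SU, with a log2 fold change of -0.52 (95% interval -1.02 to -0.03). Slc1a1 had 76.3, 81.0, 87.4 and 86.3 CPM, against 79.3, 103, 108 and 101 CPM, with -0.24 (95% interval -0.47 to -0.01). In both genes the groups overlapped. For T0070907 the smallest p-values belonged to the same pair, with 77.1 to 99.7 CPM of Slc1a1 (log2 fold change -0.19) and 93.8, 102, 71.3 and 130 CPM of Grin2b (-0.36). Both comparisons share the MPTP-SU libraries, and both genes are those that moved with the thalamus list, which summed to 543 to 1382 CPM in MPTP-SU+S, 528 to 1870 CPM in MPTP-SU+T and 682 to 1555 CPM in MPTP-SU. The part of these markers in the differences was not tested.

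The genes called between MPTP-SU and MPTP-Veh were not called for either antagonist. Grm3 had 40.9, 45.8, 46.8 and 36.3 CPM in MPTP-SU+S and 42.7, 43.4, 39.0 and 42.6 CPM in MPTP-SU+T. Grin2d had 56.6, 48.3, 46.7 and 45.3 CPM in MPTP-SU+S, all above the MPTP-SU values (log2 fold change 0.20, 95% interval -0.20 to 0.60), and 43.4, 45.0, 54.2 and 49.3 CPM in MPTP-SU+T. In MPTP-SU+S, 2 of the 30 genes did not overlap with MPTP-SU, Grin2d and Grid1, where 2.15% of all genes did not (1.12% higher, 1.03% lower), and in MPTP-SU+T none, where 1.97% of all genes did not (1.02% higher, 0.95% lower).

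Among the transporters and core subunits, Slc17a6 had 271, 359, 402 and 414 CPM in midbrain MPTP-SU+S and 443, 379, 293 and 407 CPM under T0070907. Slc17a7 was at most 92.0 CPM with SR141716A and between 40.8 and 165 CPM with T0070907, overlapping with the Con values. Slc17a8 was scattered, with 6.99, 2.03, 3.32 and 15.5 CPM and 4.10, 6.41, 12.4 and 4.52 CPM. None of these 3 separated the antagonist groups from MPTP-SU. Slc1a2 had 1307 to 1529 CPM with SR141716A and 1359 to 1663 CPM with T0070907, and Slc1a3 had 187 to 276 CPM and 226 to 276 CPM. Gria2 had 218 to 311 CPM and 198 to 321 CPM, and Grin1 had 270 to 316 CPM and 246 to 320 CPM. All overlapped the MPTP-SU values.

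The median coefficient of variation of the genes over the 20 libraries was 8.45% in spinal cord, near the 9.58% of all genes, and 23.7% in midbrain, near the 20.8% of all genes. No gene of the set was called in any of the 4 spinal cord comparisons in edgeR or DESeq2. The share of all genes called was 0% for MPTP-Veh against Con, for MPTP-SU against MPTP-Veh and for MPTP-SU+S against MPTP-SU, and 0.024% for MPTP-SU+T against MPTP-SU. At an unadjusted p below 0.05 the set held 5, 2, 1 and 4 genes in these comparisons, where 12.8%, 3.81%, 5.49% and 12.1% of all genes passed.

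Gria1 had the smallest p in both steps of the main design. It had 148, 147, 152 and 149 CPM in spinal cord MPTP-Veh, below all 4 Con values, and 168, 160, 157 and 154 CPM in MPTP-SU, above all MPTP-Veh values. The log2 fold changes were -0.13 (95% interval -0.22 to -0.04, adjusted p = 0.245 in edgeR) and 0.10 (95% interval 0.01 to 0.19, adjusted p = 0.999), and both comparisons share the MPTP-Veh libraries. Besides Gria1, Grik3 and Grin3b did not overlap between MPTP-Veh and Con, where 4.63% of all genes did not (2.4% higher, 2.22% lower), and Slc1a1 did not overlap between MPTP-SU and MPTP-Veh, where 3.31% of all genes did not (1.44% higher, 1.87% lower). Grik3 had 32.9, 34.6, 34.4 and 36.5 CPM in MPTP-Veh against 29.4 to 32.3 CPM in Con (0.14 on the log2 scale). Grik1 had 16.1, 18.2, 16.3 and 15.5 CPM in MPTP-SU, overlapping with MPTP-Veh (0.18).

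With SR141716A, the smallest p-values in spinal cord were those of Slc1a3, with 109, 121, 118 and 115 CPM against 110, 108, 104 and 97.8 CPM in MPTP-SU (0.14 on the log2 scale), and Slc17a6, with 226, 251, 258 and 262 CPM against 246, 227, 227 and 229 CPM (0.10), both with an adjusted p of 0.899 in edgeR. With T0070907, Grik3 had 36.9, 39.8, 41.9 and 40.4 CPM against 35.2, 33.7, 35.6 and 32.3 CPM in MPTP-SU, all of them higher (log2 fold change 0.22, 95% interval 0.11 to 0.34, adjusted p = 0.162 in edgeR). Grin1 had 336, 342, 366 and 367 CPM against 307, 324, 291 and 320 CPM, again all higher (0.19, 95% interval 0.08 to 0.31, adjusted p = 0.205). Gria2, Slc1a1 and Slc1a2 lay below the MPTP-SU values in all libraries, so that 5 of 30 genes did not overlap, where 7.91% of all genes did not (3.45% higher, 4.45% lower).

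As shares per kb of transcript in spinal cord, Slc17a6 made up between 97.6% and 98.5% of the vesicular family on average in every group, and Slc1a2 between 78.0% and 79.7% of the plasma membrane family. In midbrain the mean share of Slc17a6 was 51.0% in Con and between 71.9% and 81.4% in the 4 MPTP groups, with standard deviations from 5.98 to 19.3 percentage points (n = 4).

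Whether the responses differed between tissues was tested as an interaction over all 40 libraries, with an adjusted p below 0.05. For MPTP-Veh against Con, Slc1a3 (-0.73, SE 0.20 and adjusted p = 0.0466 in edgeR) and Slc17a7 (-2.69, SE 0.77 and adjusted p = 0.0494) had a lower log2 fold change in midbrain than in spinal cord, which is 2 of 30 genes where 3.12% of all genes passed (2.11% higher, 1.01% lower). Slc1a3 passed no longer when any midbrain Con or spinal cord MPTP-Veh library, or spinal cord Con replicate 1, 3 or 4, was left out, with values from -0.84 to -0.52 over all 16 libraries left out. Slc17a7 passed no longer without midbrain Con replicate 1, 2 or 4, midbrain MPTP-Veh replicate 4 or any spinal cord library of both groups, with values from -3.16 to -2.19. The spinal cord side of the Slc17a7 result rests on few counts, with 0, 24, 46 and 24 in Con and 42, 48, 37 and 42 in MPTP-Veh.

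For MPTP-SU against MPTP-Veh, Grm3 (1.00, SE 0.24 and adjusted p = 0.00766 in edgeR) and Grin2d (-0.71, SE 0.20 and adjusted p = 0.0191) differed between the tissues, where 16.8% of all genes passed (6.11% higher, 10.7% lower). In spinal cord, Grm3 had 23.2, 27.7, 26.8 and 24.1 CPM in MPTP-Veh and 23.0, 21.5, 24.6 and 22.5 CPM in MPTP-SU, and Grin2d 43.0, 37.3, 38.9 and 37.2 CPM and 37.9, 41.3, 34.9 and 38.6 CPM. Grm3 kept its call whichever library was left out, with values from 0.75 to 1.15. Grin2d had -0.35 without midbrain MPTP-Veh replicate 4 (adjusted p = 0.0504).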

How the data were processed

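Poly(A) RNA of each tissue piece went into the CORALL RNA-Seq V2 kit, and both fragment ends were read on an Illumina NovaSeq. Per the labels and methods, the authors used fastp for trimming, STAR for alignment and Salmon for quantification. GRCm39 is named in the submitters' processing notes, which also list GATK without a role. Versions and the annotation are not given in the sources used here. The deposited values are estimated counts for each gene symbol, which the authors had rounded and not normalized. Labels name TaKaRa RNAiso Plus for extraction, the methods an iNtRON Easy-Spin kit.

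Counts were analyzed in R 4.3.3 with edgeR 4.0.16 (filterByExpr over groups, TMM, quasi-likelihood test). Each tissue was fitted over its 20 libraries (16629 and 16682 genes), and both tissues over 40 (17426 genes) for the tissue comparison and the interactions. Benjamini-Hochberg adjustment ran over all genes tested. Calls needed an adjusted p below 0.05 and a fold change above 1.5, interactions the adjusted p alone. Alternatives used DESeq2 1.42.0, limma 3.58.1 (voom), other scalings, filters and covariates. The fits were tested on simulated data. Lengths and GC content came from the longest GENCODE vM21 transcript. A share or a level per kb depends on that choice of transcript.

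Set and lists were chosen with earlier results of these data known. Values in every library are given for up to 6 called genes with the smallest p per comparison (for the tissues, up to 5 of largest fold per direction), for the 2 of smallest p where none was called, and for Slc17a6, Slc17a7, Slc17a8, Slc1a2, Slc1a3, Gria2 and Grin1, with exceptions for genes named beside them. Up to 3 called genes are named per partner list. The labels do not say that replicates are separate animals, and p-values measure the spread between these samples. Depth sets a floor of 3 counts, or 0.171 to 0.280 CPM per library, which covers counting error only.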

Additional observations from a re-analysis of the deposited data

Results flagged for a closer look

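In groups of 4 libraries, 1 library stood far from the other 3 in 22 of 300 combinations of gene and group (its gap over the range above Dixon's critical value), where chance flags about 1 in 20. Of these, 10 were midbrain MPTP-Veh replicate 4. It was high for Grik4 (45.6 CPM), Grik5 (286 CPM), Grin1 (692 CPM), Grin2d (118 CPM), Grin3b (2.80 CPM), Grm4 (119 CPM) and Slc1a6 (51.4 CPM), and low for Gria4 (71.2 CPM), Grik2 (22.0 CPM) and Slc1a2 (401 CPM). In midbrain, Con replicate 2 was high for Gria2 (323 CPM), Grik5 (107 CPM) and Grm5 (101 CPM), MPTP-Veh replicate 3 was high for Grm2 (16.1 CPM), MPTP-SU replicate 1 was high for Slc17a8 (10.2 CPM), and MPTP-SU+T replicate 3 was low for Grm3 (39.0 CPM). In spinal cord, Con replicate 2 was high for Gria2 (255 CPM) and Gria4 (212 CPM), MPTP-Veh replicate 1 was low for Gria2 (187 CPM) and Slc17a6 (218 CPM), MPTP-SU replicate 1 was high for Slc17a6 (246 CPM), and MPTP-SU+T replicate 3 was high for Grin2d (43.5 CPM).

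The difference in response between midbrain and spinal cord passed edgeR's test of the difference itself for Slc17a7 (log2 difference -2.69) and Slc1a3 (-0.73) in MPTP-Veh against Con and for Grin2d (-0.71) and Grm3 (1.00) in MPTP-SU against MPTP-Veh. Most of these depended on single libraries or on the fit. Slc1a3 did not pass in 11 and Slc17a7 in 12 of 16 fits with 1 library left out, and neither passed with the replicate block (adjusted p = 0.0778 and 0.0886 in edgeR). Slc17a7 had at most 48 counts in the spinal cord libraries of these groups, and 0 in Con replicate 1. Grin2d did not pass without midbrain MPTP-Veh replicate 4 (adjusted p = 0.0504 in edgeR). Grm3 passed in all 19 alternatives.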

How the results depend on the processing

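The number of genes of the set called between the Con tissues was 9 to 15 over 19 alternatives, against 11. The 15 came from the adjusted p alone, which 29.8% of all genes passed. Shares of all genes under the other alternatives are not given here for the tissues. The number called was 0 under all 19 in the 4 spinal cord comparisons and both midbrain antagonist comparisons. In spinal cord MPTP-SU+T against MPTP-SU, Grik3 and Grin1 did pass the adjusted p under an alternative, at less than a 1.5-fold change. For midbrain MPTP-SU against MPTP-Veh the number called was 2, but 4 with the adjusted p alone, 7 with DESeq2, 4 with at least 10 counts in every library, 0 with the 8 libraries alone, and 0 to 11 with each library left out. Of all genes, 20.1% passed the adjusted p alone in this comparison. Shares of all genes with DESeq2 and with the count filter are not given here, so those counts cannot be read as particular to the set. For midbrain MPTP-Veh against Con the number called was 0, but 4 with DESeq2 and 0 to 4 with each library left out. For the tissue difference in MPTP-Veh against Con it was 2, but 5 with DESeq2, 4 with limma-voom and 0 to 8 with each library left out, and for that in MPTP-SU against MPTP-Veh it was 2, but 7, 8 and 1 to 13. In the main fit, 3.12% and 16.8% of all genes passed for these tissue differences, and shares under the alternatives are not given here. Over all genes, midbrain MPTP-SU against MPTP-Veh gave 2237 calls, but 854 with limma-voom, 0 with the 8 libraries alone, 572 without MPTP-Veh replicate 4, 618 without MPTP-SU replicate 2 and 3543 without MPTP-Veh replicate 3, and midbrain MPTP-Veh against Con gave 3, but 446 with DESeq2 and 1093 without MPTP-Veh replicate 3. Where these counts moved, the cause was not tested.

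The labels do not say that a replicate number is an animal. Same-numbered midbrain and spinal cord libraries had r from -0.15 to 0.30, over 0.1 in 2 of 20 pairs. Of 20 midbrain libraries, 10 correlated best with their own number, where 5 would if numbers carried nothing, and in the 3 groups given SUEHP 9 of 12 did, with r above 0 in 12 of 12. In Con, r was between -0.0522 and -0.00176, and no library correlated best with its own number. In MPTP-Veh, r ranged from -0.151 to 0.0884, and only replicate 2 correlated best with its own number. Whether equal numbers stand for shared animals was not tested, and the numbers were not treated as pairs. The replicate block left 11 calls between the tissues and 2 in midbrain MPTP-SU against MPTP-Veh, and gave 0 for the tissue difference in MPTP-Veh against Con.

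Directions reversed for genes that were not called. Grin1 between the tissues became 0.0368 with library size alone, and 0.0126 and 0.00114 without spinal cord Con replicate 3 or 4 (range with each library left out -0.0780 to 0.0126). In midbrain MPTP-Veh against Con, Grin1 became -0.0593 with limma-voom and -0.0814 without MPTP-Veh replicate 4 (range -0.0814 to 0.431), and Slc17a6 became 0.21 with limma-voom, 0.11 with the GC and length trend removed, 0.11 with the replicate block added to that, and 0.00524, 0.06 and 0.22 without Con replicate 1, Con replicate 3 or MPTP-Veh replicate 4 (range -0.185 to 0.224). In midbrain MPTP-SU against MPTP-Veh, removal of that trend gave -0.24 for Gria2 and -0.00696 for Grik2, and -0.24 and -0.00641 with the replicate block. Depth limits Grm6, Grin3b, Slc17a8 and, in spinal cord, Slc17a7.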
